A study of Mus musculus with 4 samples.

Results

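Genes that carry the signal of the T-cell receptor into the cell were followed through cultured mouse T-cell progenitors: Lck, Fyn, Zap70, Lat, Lcp2, Prkcq and Txk. They were taken by gene symbol, and all 7 were found once each among the 31053 genes counted. In a mature T cell the Src family kinases Lck and Fyn phosphorylate the CD3 and zeta chains of an engaged receptor. Zap70 then binds these chains and phosphorylates the adaptors LAT (Lat) and SLP-76 (Lcp2), on which Tec family kinases such as TXK (Txk) and phospholipase C gamma act, and protein kinase C theta (Prkcq) passes the signal towards NF-kappa B. Early progenitors have no complete receptor, and parts of the machinery are known to be transcribed before it is assembled.

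The cells came from bone marrow of Bcl2 transgenic mice, 8 to 10 weeks old for the overexpression arm, and grew on OP9-Dll1 cells, a stromal line with a Notch ligand, in 10 ng/ml IL-7 and Flt3-ligand. All cultures carried the Bcl2 transgene, controls included. In the overexpression arm MSCV-Runx1-mCherry was set against MSCV-empty-mCherry, delivered on day 2, with harvests after 4 and 6 days in all. In the knockout arm, cells of Cas9;Bcl2 mice received E42 vectors with guides against Runx1 (marked by hNGFR) and Runx3 (marked by mTurquoise), 3 guide pairs per gene, or E42 control guides against luciferase, on day 2, with harvests after 5 and 8 days. Sorted cells were negative for lineage markers and positive for CD45 and the vector markers. Experiment 1 spanned 4 to 5 days of culture and experiment 2 spanned 4 to 8 days, each with an mRNA library and a hashtag library, the latter from antibody-borne DNA tags that mark the culture of a cell. The Runx1 counts cannot separate the vector from the mouse gene, and the same holds for Bcl2 and its transgene.

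The hashtag columns state no condition, so each of the 8 hashtags in an experiment stands as a sample whose condition is not known. No overexpressing or knockout group was compared with its control, and no p-value is given. The same 8 tags were used in both experiments, and a hashtag of experiment 1 need not be the culture of the same number in experiment 2.

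The upstream sequences were examined because the study perturbed Runx factors. RefSeq start sites (GRCm38.p6) were found for 7 of 7 genes by symbol, 11 starts in all, and the 250 bases before each were searched on both strands for the Runx letters TGTGGT and TGCGGT. Of 32851 such windows over all genes, 18.6% held a match, and 4 of the 11 windows of these genes did. These were 1 window each of Lck (start 1 of 2), Fyn (its only start), Zap70 (start 2 of 3) and Txk (start 2 of 2). The second Lck window, chr4:129558373-129558622, held no match, and neither did the other windows of Zap70 and Txk. The Lck window with the match, chr4:129573642-129573891 (minus strand), lies directly before the gene's annotated end of chr4:129548344-129573641. It is shown whole because Lck had the widest absolute range of levels. For the other matches 30 bases are shown: Fyn at chr10:39369576-39369605 (plus strand), Zap70 at chr1:36764428-36764457 (plus strand) and Txk at chr5:72736605-72736634 (minus strand). The Zap70 and Txk stretches precede the second listed start of each gene and lie inside its annotated span, chr1:36761798-36782821 and chr5:72695978-72752992, whereas that of Fyn lies before its span, chr10:39369743-39565381. Each is written 5′ to 3′ on the strand of the gene, with the match in capitals.
Lck: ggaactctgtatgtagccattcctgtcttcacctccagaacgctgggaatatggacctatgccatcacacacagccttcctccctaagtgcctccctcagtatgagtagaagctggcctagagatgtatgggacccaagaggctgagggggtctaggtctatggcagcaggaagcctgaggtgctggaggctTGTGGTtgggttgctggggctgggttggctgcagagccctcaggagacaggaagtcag
Fyn: gtggccgtgcgcACCGCAggctgcccgcca
Zap70: tgagcaggttccTGTGGTgggagggaggac
Txk: ttcagaagggaaACCACActggtcagggtg
The Lck match lay 58 bases before the first listed start of that gene, and that of Fyn 211 bases before its only one. The Zap70 match lay 75 and the Txk match 20 bases before the second listed start. The windows of Lat, Lcp2 and Prkcq held neither set of Runx letters. Searched in the same way, the letters CTTTGA of TCF factors were also found in 4 of the 11 windows, against 13.8% of all windows. The letters AGATAA of GATA factors were found in 2 of the 11, against 9.99%. The E-box letters CAGCTG were found in 1, against 13.0%. A match is a string in the sequence and was not measured as a binding site.

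Experiment 1 held 9967 barcodes, of which 9332 passed the cell filter and 8797 carried a single hashtag. Experiment 2 held 10556, 10214 and 8335. A hashtag summed 14502385 to 38067298 unique molecular identifiers (UMIs, each counting 1 captured transcript) in experiment 1 and 22272716 to 42684236 in experiment 2. Levels are given as CPM, the UMIs of a gene per 1e+06 UMIs of these sums. The libraries of the experiments shared 39 barcodes. The labelled cell type is a Kit-high double-negative progenitor. Kit lay between 54.3 and 89.0 CPM in experiment 1 and between 26.4 and 56.5 CPM in experiment 2. Cd4 was at most 0.27 CPM in any hashtag, while Cd8a reached 42.2 CPM in experiment 2. Runx1 lay between 38.2 and 241 CPM in the first experiment and between 33.7 and 121 CPM in the second. All 95% intervals below cover counting error and leave out the variation from culture to culture. UMIs count the 3′ ends of transcripts, so levels are not compared between genes as amounts of RNA per length.

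Across hashtags, Lck, Lat, Prkcq and Txk differed widely, Fyn and Lcp2 differed little, and Zap70 was near the limit of detection outside a few samples. The ratio of the highest to the lowest hashtag reached 2 for 4 of the 6 genes whose mean was 10 CPM or more in experiment 1, against 8.33% of the 7336 genes tested. In experiment 2 it was the same number, 4 of 6, against 13.8% of 7080 genes. The 4 genes were Lck, Lat, Prkcq and Txk in both. In experiment 1 the number was 2 without hashtag 2, where Lat and Prkcq fell under 2. With cells thinned to 3000 UMIs it stayed at 4 there, but Fyn passed (2.05) and Prkcq did not (1.81). The median ratio of the 6 was 2.28 in experiment 1 and 5.47 in experiment 2, while that of all genes tested was 1.28 and 1.34. In sums over a hashtag, more cells that express a gene and more RNA per cell cannot be told apart.

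**Figure D1:**
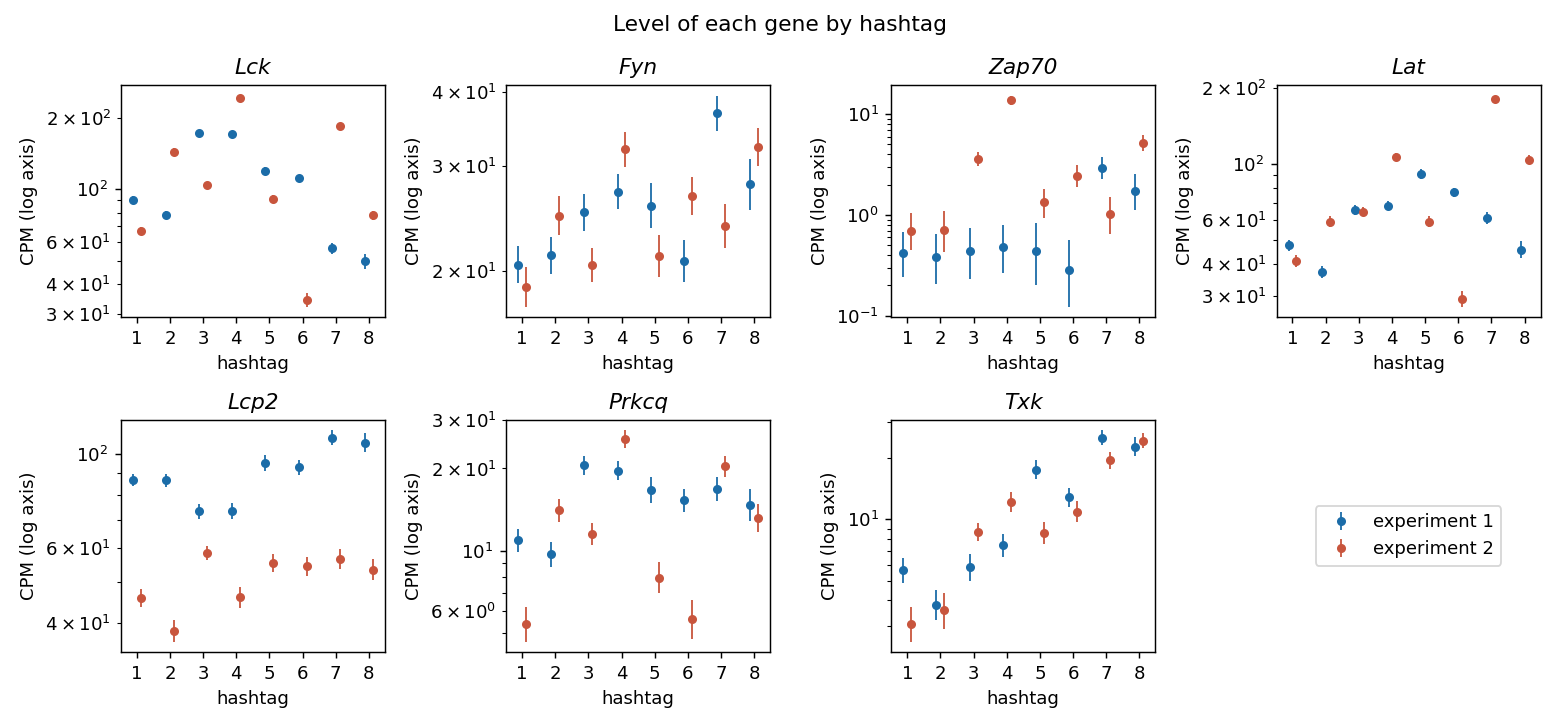
Level of each gene (CPM, log axis) in hashtags 1 to 8 of experiment 1 (blue) and experiment 2 (red). Points are UMI sums over the cells of a hashtag, and bars are exact 95% Poisson intervals. Lck spans 50.0 to 173 CPM in experiment 1 and 34.4 to 241 CPM in experiment 2. Lcp2 of experiment 2 lies under that of experiment 1 in every hashtag, and the share of all genes that do so was not counted.

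Lck encodes the Src family kinase that is bound to CD4 and CD8 in later T cells. From hashtag 1 to hashtag 8 of experiment 1 it measured 90.7, 78.1, 173, 170.0, 119, 111, 56.6 and 50.0 CPM (median 101 CPM). Hashtags 3 and 4 were highest and did not differ beyond counting error, and all other neighbours in the order of levels did. The highest-to-lowest ratio was 3.46 (3.20 to 3.74). Experiment 2 gave 67.1, 144, 105, 241, 90.8, 34.4, 185 and 77.9 CPM (median 97.8 CPM), a ratio of 7.02 (6.55 to 7.53), and each hashtag differed from its neighbour in the order. Hashtags 4 and 7 were highest and hashtag 6 stood lowest by itself; without hashtag 6 the ratio was 3.60.

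To set depth equal, each cell was thinned to 10000 UMIs, which kept 8224 cells of experiment 1 and 7746 of experiment 2. Lck was then seen in 33.3 to 79.0% of the cells of a hashtag in experiment 1 and in 23.5 to 80.0% in experiment 2. Without thinning the ranges were 47.3 to 93.3% and 38.8 to 90.1%. In clusters that should lack the gene, the thinned share was 13.5% (granulocyte or monocyte-like, experiment 1) and 6.86% (the larger such cluster of experiment 2), with median depths of 31810 and 24450 UMIs per cell against 24753 and 26338 over all cells. Every hashtag lay above the share of that cluster in its experiment. Other clusters had higher shares, at 31.3% (stromal-like, 16 cells) in experiment 1. In experiment 2 they were 11.0% (the smaller granulocyte or monocyte-like cluster), 15.3% (stromal-like) and 34.5% (B-lineage-like, 55 thinned cells). The last of these exceeded the lowest hashtag of experiment 2.

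The marker sums of other cells and of the T lineage also differed between the hashtags of experiment 2. All 12 granulocyte or monocyte markers were counted, and their sum ranged from 222 CPM in hashtag 7, which was high in Lck, to 12769 CPM in hashtag 6, which was lowest. The sum of the 12 T-lineage markers ranged from 203 CPM in hashtag 1 to 1775 CPM in hashtag 4. With 8 clusters left out, those named as other cell types and one led by Gzmc and Cd8b1, the Lck ratio of experiment 2 was 7.31 (6.77 to 7.92), with hashtags 4 and 6 again at the ends. In experiment 1, with 4 such clusters left out, it was 3.43 (3.16 to 3.73). The clusters kept in experiment 2 still differed in Lck. A progenitor-like cluster led by Egfl7 and Cox4i2 (23.8 CPM of Lck) made up 39.7% of hashtag 6. A T-lineage-like cluster led by Pgam2 and Themis (402 CPM) made up 43.6% of hashtag 4. The part of these clusters in the Lck ratio was not tested.

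Fyn, the other Src family kinase of the receptor and one with many roles outside T cells, was far more even. Its levels in experiment 1 were 20.5, 21.3, 25.1, 27.2, 25.8, 20.8, 36.8 and 28.0 CPM in hashtags 1 to 8. Hashtag 7 stood above the others. The ratio was 1.79 (1.62 to 1.98), and it was 1.36 without hashtag 7. In experiment 2 the levels were 18.9, 24.8, 20.5, 32.0, 21.2, 26.8, 23.8 and 32.3 CPM, a ratio of 1.71 (1.54 to 1.91), and only 1 of 7 steps in the order of levels exceeded counting error.

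Zap70, the Syk family kinase that binds the phosphorylated receptor chains, was the scarcest of the genes. In experiment 1 it had 8 to 65 UMIs per hashtag, which gave 0.420, 0.382, 0.438, 0.478, 0.440, 0.284, 2.93 and 1.72 CPM. Hashtags 1 to 6 did not differ from their neighbours beyond counting error, while 7 and 8 lay above them. An unnamed cluster led by Sh2d1a and AA467197 held 41 of the Zap70 UMIs of hashtag 7 and 9 of those of hashtag 8. The innate lymphoid-like cluster held 12 and 10. No ratio is given for experiment 1 because the lowest hashtag had fewer than 10 UMIs. Its levels in experiment 2 were 0.700, 0.706, 3.58, 13.8, 1.33, 2.43, 1.02 and 5.16 CPM, a ratio of 19.7 (13.1 to 31.2), and hashtag 4 alone lay above 10 CPM.

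Most of the Zap70 UMIs of experiment 2 came from one small cluster. It held 164 cells led by Gzmc, Cd8b1, Ifng and Trac, 106 of them in hashtag 4 and 37 in hashtag 3, and 68.1% of the Zap70 UMIs. Its Zap70 level was 116 CPM (107 to 126), and Zap70 was seen in 73.3% of its thinned cells. The cluster also had 368 CPM of Trac, a chain of the mature receptor, and 404 CPM of Cd8a, and was given no cell type name. With it and the clusters of other cell types left out, the levels in hashtags 1 to 8 were 0.399, 0.796, 0.403, 1.28, 0.670, 1.29, 1.06 and 4.94 CPM. All 7 markers of mature T cells were counted, and their sum, from 583 CPM in hashtag 2 to 1014 CPM in hashtag 7, was not highest in hashtag 4. Single markers of this list differed: Cd8a and Cd8b1 were highest in hashtag 4, at 42.2 and 52.1 CPM, whereas Cd4 and Cd5 were not. With those clusters out, hashtag 8 was highest, and the ratio was 12.4 (6.59 to 25.7).

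Lat encodes the membrane adaptor on which the signalling complex is built. Hashtags 1 to 8 of experiment 1 had Lat levels of 47.5, 37.2, 65.8, 68.2, 91.0, 77.0, 61.2 and 45.6 CPM, a ratio of 2.45 (2.28 to 2.63), or 1.99 without hashtag 2, the lowest. Hashtag 5 was highest, not hashtags 3 and 4 as for Lck. In experiment 2 they were 41.2, 59.0, 64.7, 106, 59.0, 29.1, 181 and 104 CPM, a ratio of 6.20 (5.75 to 6.70). Hashtag 7 stood highest, and without it the ratio was 3.65; hashtags 4 and 8 did not differ from each other. Thinned to 10000 UMIs, Lat was seen in 17.1 to 69.2% of the cells of a hashtag of experiment 2, against 3.74% in its larger granulocyte or monocyte-like cluster.

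Lcp2 encodes SLP-76, a cytosolic adaptor also used by myeloid and mast cells. Its levels in experiment 1 were 86.8, 86.8, 73.3, 73.4, 95.1, 92.9, 109 and 106 CPM, a ratio of 1.49 (1.41 to 1.58). Hashtags 3 and 4, the highest in Lck, were the lowest in Lcp2. In experiment 2 the levels were 45.8, 38.4, 58.5, 46.0, 55.4, 54.3, 56.6 and 53.4 CPM, a ratio of 1.52 (1.42 to 1.64), and counting error did not separate the 5 highest hashtags from each other as neighbours in the order.

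Prkcq encodes protein kinase C theta, which acts downstream of LAT and SLP-76. In experiment 1 its levels were 11.0, 9.72, 20.5, 19.6, 16.7, 15.3, 16.9 and 14.8 CPM, a ratio of 2.11 (1.85 to 2.42); hashtags 1 and 2 lay below the rest. The ratio fell short of 2 without hashtag 2 (1.88), without the clusters of other cell types (1.81) and with the mean over cells (1.97). In experiment 2 they were 5.40, 14.0, 11.5, 25.6, 7.98, 5.61, 20.4 and 13.2 CPM, a ratio of 4.74 (4.03 to 5.61). Hashtags 4 and 7 were highest and 1 and 6 lowest, so its ends fell among the same hashtags as those of Lck.

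Txk encodes a Tec family kinase of T cells and natural killer cells. Its levels in experiment 1 were 5.62, 3.79, 5.83, 7.46, 17.6, 12.9, 25.3 and 22.8 CPM, a ratio of 6.66 (5.52 to 8.08). Hashtags 7 and 8 were highest and did not differ from each other; they were the lowest in Lck. In experiment 2 the levels were 3.06, 3.57, 8.69, 12.2, 8.61, 10.9, 19.5 and 24.4 CPM, a ratio of 7.98 (6.46 to 9.93), with hashtag 8 highest. Txk was seen in 15.7% of thinned cells at most in experiment 1 and in 16.7% in experiment 2. The innate lymphoid markers, of which 14 of 14 were counted, did not have their highest sum in the hashtags highest in Txk: it was 2625 CPM in hashtag 5 of experiment 1 and 3818 CPM in hashtag 4 of experiment 2. The clusters named innate lymphoid-like, however, had their largest shares of cells in hashtags 8 and 7 of experiment 1 (3.91 and 3.76%) and hashtag 8 of experiment 2 (5.73%). Hashtag 7 of experiment 2, second in Txk, had 1.47%. The part of these cells in the Txk levels was not tested.

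The levels were next described against Bcl11b, whose onset marks commitment to the T lineage, and Il2ra (CD25), which rises before it. Cells were split by whether a Bcl11b UMI was seen after thinning to 3000 UMIs, which gave 418 cells with and 8258 without in experiment 1 and 764 with and 7471 without in experiment 2. Cells with Bcl11b were shallower, with medians of 20428 and 17507 UMIs against 25117 and 27389. In experiment 1, 3 of 6 genes were at least 2-fold higher in cells with Bcl11b, against 2.35% of 7661 genes. In experiment 2 it was 4 of 6, against 4.12% of 7518 genes. These counts and shares pool the cells of all hashtags of an experiment. Cells are not replicates of a condition, and no test was made.

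Lat and Lck were higher in cells with Bcl11b in 8 of 8 hashtags of both experiments. In experiment 1 Lat stood at 158 CPM with and 56.1 CPM without Bcl11b, a ratio of 2.82 (2.66 to 2.98), and 209 against 67.0 CPM in experiment 2, for a ratio of 3.12 (3.00 to 3.24). Lck had 225 against 105 CPM in experiment 1, for a ratio of 2.14 (2.04 to 2.24), and 323 against 101 CPM in experiment 2, for a ratio of 3.19 (3.09 to 3.29). Prkcq had ratios of 1.95 (1.70 to 2.22) and 3.12 (2.83 to 3.44). Txk had 2.81 (2.46 to 3.21) and 2.14 (1.90 to 2.42), and was higher with Bcl11b in 8 of 8 hashtags of experiment 1 and in 6 of 7 of experiment 2. In hashtag 4 of experiment 2, which held 363 of the cells with Bcl11b, the Txk ratio was 0.792. The pooled ratios also hold differences between hashtags. As medians of single hashtags, the ratios in experiments 1 and 2 were 2.07 and 2.38 for Lck and 2.88 and 3.83 for Lat. They were 1.94 and 2.28 for Prkcq and 2.61 and 2.59 for Txk. Hashtags 4 and 7 of experiment 2, the highest in Lck, had Lck ratios of 2.27 and 1.54. Their Lat ratios were 1.56 and 1.69, and their Prkcq ratios 1.82 and 1.89. Fyn was close to even at 1.15 (1.01 to 1.30) and 1.02 (0.916 to 1.14), and so was Lcp2 at 0.919 (0.852 to 0.991) and 1.13 (1.05 to 1.21).

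The levels were also described by the number of Bcl11b UMIs per cell, unthinned, with cells pooled over the hashtags of an experiment. In experiment 2 Lck had 82.7, 189, 239 and 301 CPM in cells with 0, 1, 2 to 3 and 4 or more Bcl11b UMIs. Lat had 47.3, 169, 205 and 196 CPM in the same cells. Txk had 7.71, 23.5, 23.7 and 17.6 CPM and was lower in the last class than in the 2 before it. The 4 classes held 6387, 625, 637 and 686 cells. In experiment 1 Lck had 96.2, 164, 191 and 239.6 CPM, Lat 48.4, 108, 138 and 159 CPM, and Txk 8.34, 25.7, 27.9 and 21.9 CPM, in the same order of classes. Lat was thus highest in the last class in experiment 1 and not in experiment 2. The classes also differed in median depth, which ran from 27650 to 20763 UMIs in experiment 2 and between 21571 and 25119 UMIs in experiment 1; the part of depth was not tested.

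Split by Il2ra, Txk showed the highest ratio of the 6 genes in both experiments. In experiment 1 it reached 21.8 CPM in cells with and 4.25 CPM in cells without Il2ra UMIs, a ratio of 5.12 (4.67 to 5.63), and 23.3 against 6.38 CPM in experiment 2, for a ratio of 3.65 (3.37 to 3.95). Lat had ratios of 2.37 (2.29 to 2.45) and 3.12 (3.03 to 3.22). Both were higher with Il2ra in 8 of 8 hashtags of each experiment. Txk and Lat were the 2 genes of 6 past 2-fold, against 1.07% of 7509 genes in experiment 1 and 1.45% of 7296 in experiment 2. Lck had lower ratios of 1.47 (1.44 to 1.51) and 1.81 (1.77 to 1.86). Split by Kit, the marker of the earliest stages, the 6 genes had ratios between 0.862 (Txk, experiment 2) and 1.23 (Lck, experiment 2).

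**Figure D2:**
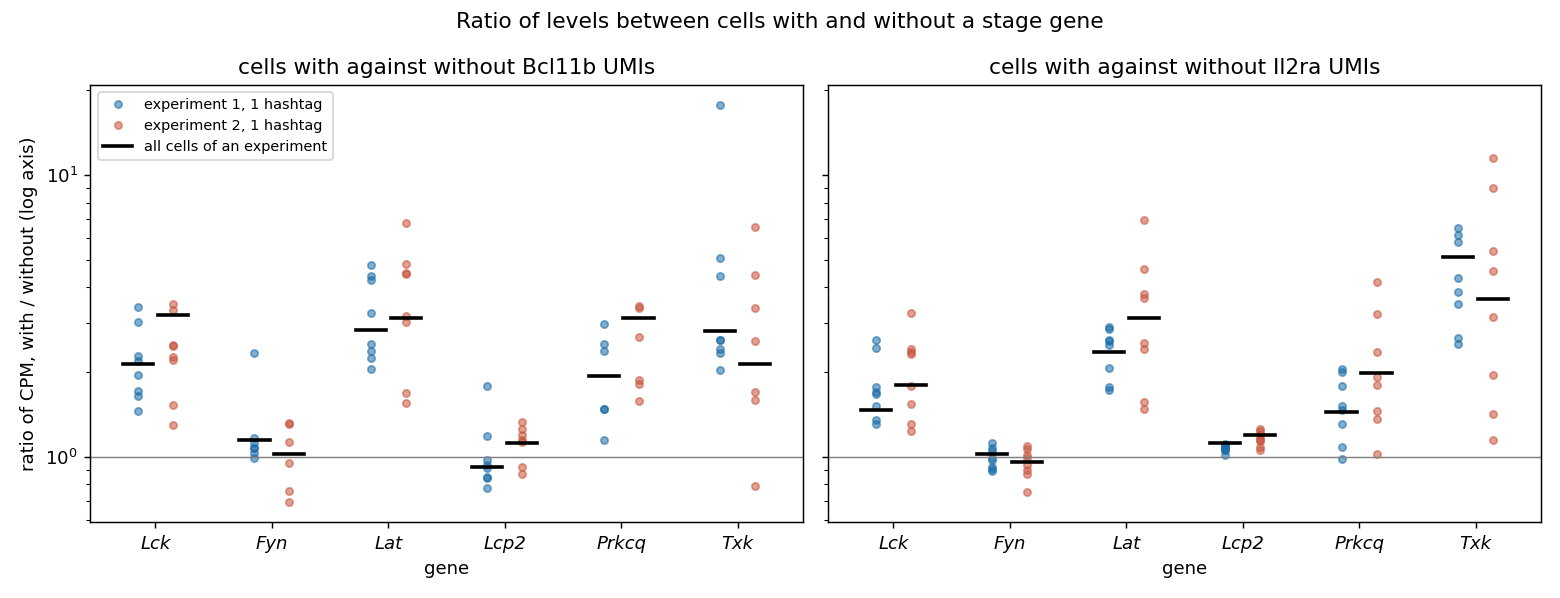
Ratio of CPM (log axis) between cells with and without UMIs of Bcl11b (left) and Il2ra (right) for 6 genes; points are single hashtags with at least 10 UMIs on both sides, and black bars are all cells of an experiment. Lat and Lck lie above 1 in every hashtag shown, while the bars of Fyn and Lcp2 lie between 0.919 and 1.20. Zap70 is not drawn because few hashtags had enough UMIs.

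Cells of each experiment were clustered without these 7 genes and without the related genes listed below, which gave 13 clusters in experiment 1 and 18 in experiment 2. Lck was highest in a T-lineage-like cluster of 651 cells in experiment 2 led by Pgam2 and Themis, at 402 CPM (390 to 414), with 510 of its cells in hashtag 4. Lat was highest in another T-lineage-like cluster of experiment 2, with 1212 cells led by Gm4632 and 5830411N06Rik, at 243 CPM (237 to 249), with 535 of its cells in hashtag 7; Lck had 200.4 CPM there. The T-lineage-like cluster of experiment 1 (883 cells, also led by Gm4632) had 164 CPM of Lat and 169 CPM of Lck. Lck was higher in the unnamed clusters of experiment 1 led by Pgam2 and Gsn (772 and 871 cells), at 195.9 and 195.5 CPM. These made up 31.6 and 36.9% of the cells of hashtag 3 and 32.8 and 35.5% of hashtag 4. In any other hashtag each made up at most 0.176%. Fyn ranged from 14.7 to 51.6 CPM over the clusters of experiment 1, and Lcp2 from 55.9 to 131 CPM. Over the clusters of experiment 2 the ranges were from 5.37 to 75.2 CPM for Fyn and from 16.8 to 66.3 CPM for Lcp2. The highest Lcp2 level there rested on 15 UMIs (37.1 to 109 CPM) of a cluster of 65 shallow cells. Fyn was highest in experiment 2 in the cluster led by Gzmc and Cd8b1.

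Progenitor-like clusters already held transcripts of several of the genes. In the progenitor-like cluster of experiment 1, Lcp2 had 98.3 CPM and Fyn 35.2 CPM, while Lck had 20.3 CPM and Lat 8.41 CPM. In the 2 progenitor-like clusters of experiment 2, Lck had 52.0 and 23.8 CPM and Lat 19.5 and 6.84 CPM. The granulocyte or monocyte-like clusters, in which Lck and Lat serve as a background, had 11.5 to 23.1 CPM of Lck and 3.82 to 12.4 CPM of Lat. The Lck level of 2 of the 3 clusters so named was thus close to that background. An unnamed cluster of experiment 2 with Kit, Cd34 and Hhex among its leading genes, headed by Spns2 and Hbb-bt, had 110.0 CPM of Lck.

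Lat and Lck parted in mast or basophil-like cells. These clusters (111 and 121 cells) had 106 CPM (94.2 to 119) and 139 CPM of Lat, with 12.4 and 15.8 CPM of Lck. LAT is known to act downstream of the IgE receptor in mast cells. Lat was seen in 51.9 and 75.5% of their thinned cells. Txk was highest in the innate lymphoid-like clusters (164 and 210 cells) of both experiments, at 124 CPM (111 to 137) and 120 CPM (109 to 132), and these held 14.5 and 18.9% of all Txk UMIs. The T-lineage-like clusters led by Gm4632 had 45.0 and 42.0 CPM and held 37.0 and 49.4% of the UMIs. In experiment 2 the cluster led by Gzmc and Cd8b1 was level with the latter, at 42.4 CPM (36.7 to 48.7), with 8.17% of the UMIs.

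**Figure D3:**
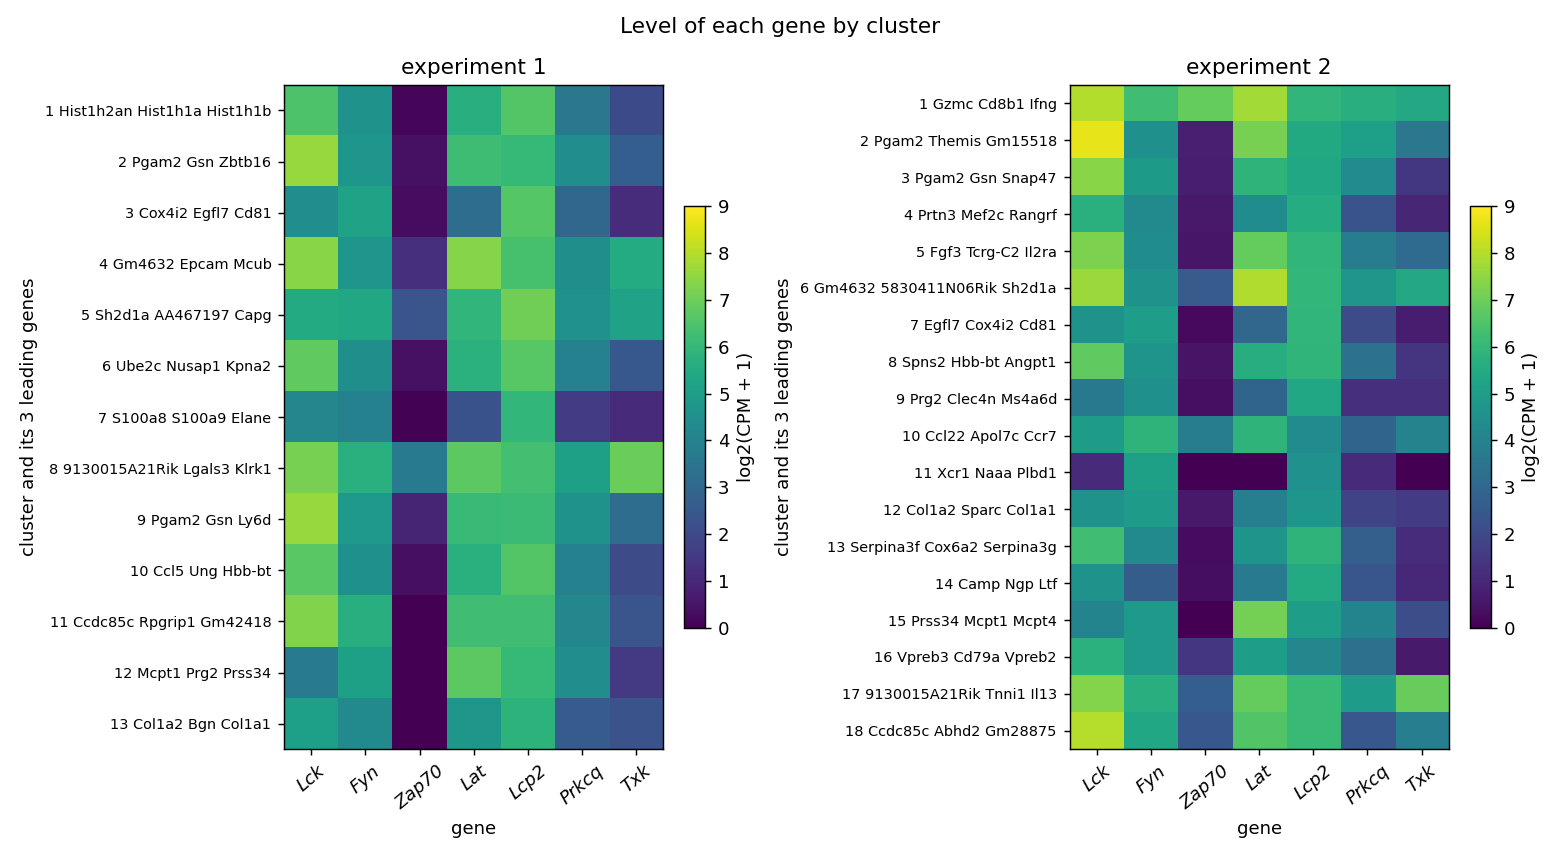
Level of each gene as log2(CPM + 1), coloured on a scale from 0 to 9, in the 13 clusters of experiment 1 and the 18 of experiment 2; rows carry the cluster number and its 3 leading genes. Lcp2 and Fyn are spread over nearly all clusters, Zap70 is high in the Gzmc and Cd8b1 cluster of experiment 2 (116 CPM), and Txk is high in the clusters led by 9130015A21Rik (124 and 120 CPM).

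Within a cluster, hashtags were compared where they held at least 50 of its cells, and set against the ratio over all cells of the same hashtags. For Lck the ratio within the cluster was the smaller in 9 of 10 clusters, by little in the granulocyte or monocyte-like cluster of experiment 1 (1.48 against 1.53). The larger such cluster of experiment 2 had 7.41 against 7.02, at 4.44 to 32.9 CPM. In experiment 1 the cluster led by Ccl5 and Ung was the one with at least 50 cells in all 8 hashtags, and Lck ranged there from 75.2 to 136 CPM, a ratio of 1.81, against 3.46 over all cells. In experiment 2 the T-lineage-like cluster led by Gm4632 had enough cells in 5 hashtags. Lck ranged there from 112 CPM in hashtag 6 to 262 CPM in hashtag 5, a ratio of 2.35 against 5.37 over all cells of these hashtags. Lat spanned 172 to 279 CPM, a ratio of 1.62 against 6.20, and Txk 33.5 to 60.7 CPM, a ratio of 1.81 against 2.84. Hashtag 6 was thus lowest in Lck and in Lat (172 CPM) among these cells too, and highest in Txk.

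Single cells were read at 10000 UMIs. A cell showed 1 to 3 of the genes in most cases, and none in 8.80% of the cells of experiment 1 and 16.9% of experiment 2. In experiment 2, 32 cells showed 6 of the genes and 4 cells showed all 7; the most seen in experiment 1 was 6, in 18 cells. Lat was seen in 43.1% of cells with Lck and 27.1% of cells without in experiment 1, and in 52.9 and 20.6% in experiment 2, higher with Lck in 8 of 8 hashtags each time. Lcp2 was seen in 56.5% of cells with Lat and 56.6% of cells without in experiment 1, and in 42.1 and 37.1% in experiment 2, higher with Lat in 4 of 8 and 7 of 8 hashtags. These shares are across cells of 1 library and depend on the mix of cells.

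Related kinases and adaptors of other blood cells were set beside them. Lyn is a Src family kinase of myeloid and B cells, Syk is the relative of Zap70 in B and myeloid cells, and LAT2 (Lat2, also called NTAL) is the LAT relative of those cells. Lyn was seen in 34.4% of cells with Lck and 43.0% of cells without in experiment 1, and in 29.5 and 44.8% in experiment 2, lower with Lck in 7 of 8 hashtags of the first and 8 of 8 of the second. Syk was seen in 30.2% of cells with Lck and 25.0% without in experiment 1, and in 23.0 and 20.8% in experiment 2, higher with Lck in 4 of 8 and 3 of 8 hashtags. Lck UMIs per Lyn UMI ranged from 0.698 in hashtag 8 to 3.53 in hashtag 3 in experiment 1, and from 0.484 in hashtag 6 to 6.56 in hashtag 7 in experiment 2. Syk exceeded Zap70 in UMIs in every hashtag of both experiments, with at most 0.126 and 0.412 Zap70 UMIs per Syk UMI. Lat UMIs stayed under those of Lat2 in all 8 hashtags of experiment 1 and exceeded them in hashtags 4, 7 and 8 of experiment 2, with up to 1.89 per Lat2 UMI.

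**Figure D4:**
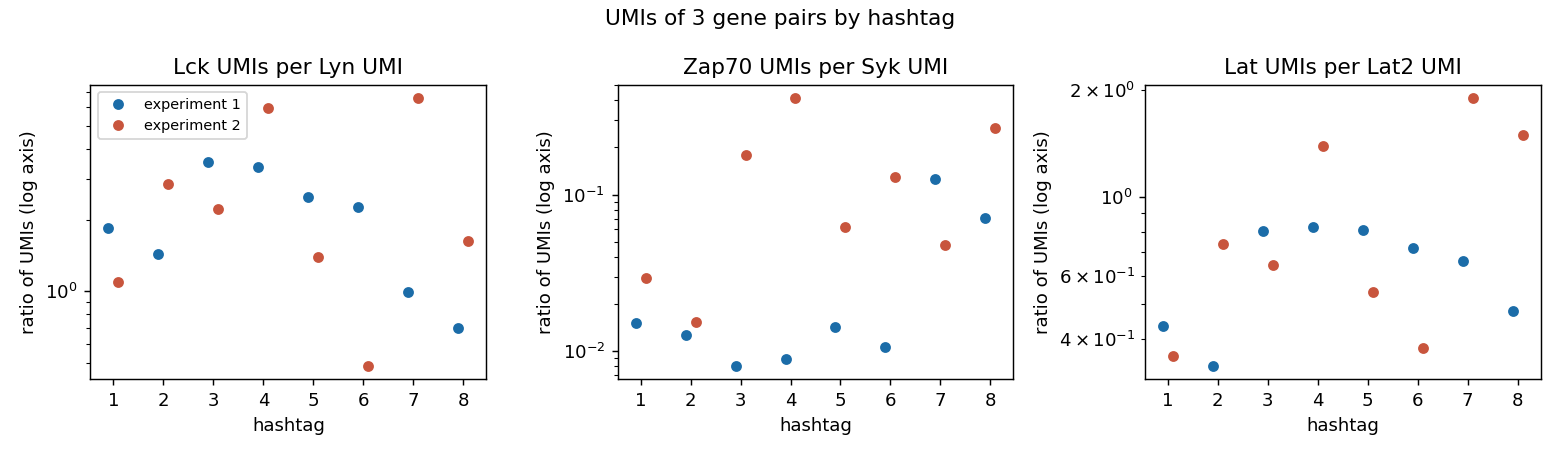
UMIs of one gene per UMI of its relative (log axis) in hashtags 1 to 8 of experiment 1 (blue) and experiment 2 (red), for Lck with Lyn, Zap70 with Syk and Lat with Lat2. Lck per Lyn runs from 0.484 to 6.56 in experiment 2, and Zap70 per Syk stays at or under 0.412.

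Of 58 other genes of the pathway, 36 had enough UMIs to be tested in experiment 1 and 37 in experiment 2. The ratio between hashtags reached 2 for 12 of 36 and 23 of 37, to be read against the same 8.33 and 13.8% over all genes. The median ratio of the tested genes was 1.64 and 2.34. All 4 CD3 and zeta chains tested in experiment 2 passed, as did the 2 tested in experiment 1. Cd3g, a signalling chain of the receptor, spanned 20.9 to 743 CPM in experiment 2 with a 35.5-fold ratio (33.0 to 38.3), with hashtags 4 and 7 highest as for Lck.

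Of the regulators of Src kinases, 1 of 8 passed in experiment 1 and 3 of 8 in experiment 2, with median ratios of 1.40 and 1.72. Csk, which phosphorylates the inhibitory tyrosine of Lck and Fyn, was almost level, with ratios of 1.11 (1.05 to 1.17) and 1.20 (1.14 to 1.26). Sla2, an adaptor that dampens receptor signalling, was the regulator that passed in both, with ratios of 2.75 (2.41 to 3.14) and 5.48 (4.84 to 6.22). Downstream adaptors and enzymes passed in 6 of 17 and 8 of 16 cases. In experiment 2 Skap1, a cytosolic adaptor among them, had a ratio of 16.7 (14.2 to 19.6), and Grb2, which links LAT to Ras, of 1.36 (1.30 to 1.42). Of the coreceptors and costimulators 0 of 7 reached the mean of 10 CPM with 10 UMIs in the lowest hashtag that the test required.

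Over all cells, Lcp2 was the only one of the 6 genes at least 1.5-fold apart between the experiments. Its level was 88.1 CPM in the first and 51.2 CPM in the second, giving a ratio of 0.581 (0.568 to 0.595), against 7.17% of 7212 genes that low and 2.47% at least 1.5-fold higher. Its lowest hashtag of experiment 1 had 73.3 CPM and its highest of experiment 2 had 58.5 CPM. The share of all genes whose hashtags part in this way was not counted. Lat had a ratio of 1.26 (1.23 to 1.29) and Prkcq of 0.819 (0.779 to 0.861). Lck, at 1.05 (1.03 to 1.06), fell below 1 when any of 4 single hashtags was left out, and its hashtags overlapped. Zap70, too scarce for the count, had 0.746 and 3.44 CPM, a ratio of 4.61 (3.89 to 5.49), which was 1.5 without the cluster led by Gzmc and Cd8b1. Culture time, library and mix of cultures cannot be told apart here.

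The genes whose profile over the 16 hashtags was most like each of the 7 were found by the root mean square difference of log2(CPM + 1), centred on the median of each experiment, among about 6895 genes. For Lck it was Crip1 (0.195, where a flat profile would differ by 0.728). For Lat it was Bcl2 (0.168, against 0.626 for a flat profile), a gene whose counts may hold the transgene. For Prkcq it was Trbc1, a receptor beta constant gene (0.123, against 0.553). For Txk it was Fam20a (0.294), followed by Tcrg-C1 (0.306) and Il7r, the IL-7 receptor (0.309), against 0.873. Fyn had Notch1 (0.104, against 0.257) and Lcp2 had Trak1 (0.0920, against 0.204). Zap70 had no close neighbour: Ms4a4b came first at 0.525, against 0.862 for a flat profile.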

How the data were processed

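The authors deposited raw UMI counts per gene and cell barcode and raw tag counts per barcode for 8 hashtags. Per the submitters' processing notes, Cell Ranger 3.0.0 and the builds mm10 and GRCm38 were used; per the labels, libraries were 10x Chromium version 3. Whether the tag counts are molecules or reads is not given in the sources used here. The 7 genes, the lists of related genes and the cell type markers were chosen with earlier results of these data known, and some genes of the lists are not reported here.

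Barcodes entered when they showed 500 genes or more and less than 10% of their UMIs were mitochondrial. A cell took a hashtag whose tag had at least 50 counts and 3 times the second; other cells, doublets among them, were left out. UMIs were summed per hashtag and divided by the total (CPM). Intervals are exact 95% Poisson, exact conditional (ratios) or Clopper-Pearson (shares). Depth ran from 14502385 UMIs upwards per hashtag; counts carry no replicate error. Ratios needed 10 UMIs in the lowest hashtag, and genes entered the count of ratios with a mean of at least 10 CPM. Cells were thinned without replacement to 10000 UMIs for shares and 3000 UMIs for strata.

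Clusters came from scanpy 1.11.5 (2000 variable genes, 30 components, 15 neighbours, Leiden resolution 0.5), without the 7 genes and the lists. A cluster was named with 3 or more markers in its 50 leading genes (50 CPM or higher); it stayed unnamed with fewer, with a tie, where another class had more markers among the 10 leading genes, or where its median depth was low and none of its own markers stood there, so differences in names from the study may come from this rebuild. Named genes were the 7, the lists and the 3 nearest profiles of each. Ensembl IDs matched the reference symbols for 7 of 7 genes. Alternatives used Seurat 5.3.0 (HTODemux, quantile 0.99), edgeR 4.0.16 (TMM factors only), numpy 2.4.6 and scipy 1.17.1. The calculations were tested on simulated data.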

Additional observations from a re-analysis of the deposited data

Results flagged for a closer look

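Of 108 profiles of genes over the 8 hashtags of an experiment, 5 had an end value set so far from the nearest hashtag that it passed Dixon's 95% limit for 8 samples. Chance flags about 1 in 20 groups of replicates, and hashtags are samples of unknown condition, not replicates. In experiment 1, Fyn had 36.8 CPM in hashtag 7 against 28.0 CPM in the next hashtag, and Lyn had 71.6 CPM in hashtag 8 against 57.0 CPM. Hashtag 4 of experiment 2 held 13.8 CPM of Zap70 against 5.16 CPM. Hashtag 4 also held 106 of the 164 cells of the cluster led by Gzmc and Cd8b1, and without that cluster and those named as other cell types its Zap70 level was 1.28 CPM. Hashtag 8 of experiment 2 had 69.5 CPM of Sh2d1a, which encodes the adaptor SAP, against 21.1 CPM. Ptpn6, a phosphatase that dampens Src kinases, was lowest in hashtag 7 of experiment 2 at 71.8 CPM, with 105 CPM in the next.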

How the results depend on the processing

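The number of the 6 genes with a ratio of at least 2 stayed within 1.5 times of 4 in both experiments under every hashtag rule, cell filter, scaling and cluster setting run, with 3 to 4 in experiment 1 (3 with means over cells and without clusters of other cell types), but the genes were not always the same 4: thinned to 3000 UMIs, Fyn passed in experiment 1 in place of Prkcq. Without hashtag 2 of experiment 1 it was 2, and 4 without any other single hashtag of either experiment. At a minimum ratio of 4 it was 1 in experiment 1. The number of genes 1.5-fold apart between experiments rose from 1 to 2 with the clusters named progenitor-like and T-lineage-like only, an alternative chosen after seeing the data. The Lck ratio between experiments reversed to 0.989 and 0.992 without hashtag 2 or 7 of experiment 1, and to 0.900 and 0.974 without hashtag 4 or 7 of experiment 2; the cause was not tested. Of 406 alternative values for single genes, 252 stayed within the counting interval of the main value, 150 moved outside it and 4 reversed. Those moved over 1.5 times were, in experiment 1, Lat (4.21), Prkcq (4.10) and Txk (3.45) with the named clusters only. In experiment 2 the Lck ratio became 10.6 with those clusters and 3.60 without hashtag 6, Zap70 7.38 without hashtag 4, 30.4 with HTODemux and 10.9 without the Gzmc and Cd8b1 cluster, Lat 3.65 without hashtag 7, and Prkcq 7.84 with the named clusters and 7.89 when thinned to 3000 UMIs. With Bcl11b, the Zap70 ratio went from 3.34 to 1.72 in experiment 1 with thinned levels, and in experiment 2 from 1.78 to 3.21 with all UMIs for the strata and 2.94 without clusters of other cell types. Between experiments, Txk became 0.567 with the named clusters, and Zap70 2.85 without hashtag 4, 1.5 without the Gzmc and Cd8b1 cluster and 2.10 with the named clusters. Counts of genes 2-fold higher with Bcl11b ran from 2 to 4 in experiment 1 and from 3 to 4 in experiment 2. Leaving out the lowest hashtag, each hashtag in turn for the number with a ratio of at least 2, the Gzmc and Cd8b1 cluster or the clusters named as other cell types was also chosen after seeing the data. No paired analysis was possible because the hashtag columns carry no replicate number or condition. Depth limits Zap70 most, with 165 UMIs in all of experiment 1.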

Other observations

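Barcodes that passed the cell filter without a single hashtag (535 in experiment 1 and 1879 in experiment 2) entered no comparison. Each of the 7 genes lay there within the range of the hashtags of its experiment: Lck had 105 and 80.0 CPM, Lat 63.0 and 61.8 CPM, and Zap70 0.898 and 4.03 CPM in experiments 1 and 2.

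Members of other families also differed between hashtags. Blk, a Src family kinase of B cells that innate-like T cells also express, lay between 2.62 and 29.7 CPM over the hashtags of experiment 2, 11.3-fold apart (8.86 to 14.7), highest in hashtag 7 and lowest in hashtag 6. Prkch, protein kinase C eta, ranged from 16.6 to 53.5 CPM there, a ratio of 3.21 (2.88 to 3.59), between the same hashtags. Lat had the same hashtags at its ends.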
